A study of Mus musculus with 24 samples.

Results

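The comparison described here set RAW264.7 macrophages that received medium PAC + LPS against the same cells that received low PAC + LPS. PAC are proanthocyanidins, chains of flavan-3-ol units from plants, and the 2 fractions were purified from grape pomace and differ in their mean degree of polymerization, which is higher in the medium fraction. Cells had either fraction at 15 µg/mL from 30 min ahead of LPS (500 ng/mL) and were lysed for RNA at 6 h, so that the low PAC + LPS cells served as a reference that held the same mass of polyphenol. At an equal mass the longer chains supply fewer molecules, so the molar doses differed. The labels of treatment and dose chose the arrays, 3 with medium PAC + LPS and 3 with low PAC + LPS, or 6 of the 24 arrays in the series, and all 22206 gene features of the array were compared. The other arrays, 3 in each group, held high PAC + LPS, LPS, medium PAC, low PAC, high PAC and control cells. The resting groups received no LPS, and control and LPS cells received no PAC. The study names PBS as the vehicle control for PAC. RAW264.7 is a single mouse cell line from a tumour induced by a leukaemia virus, so every group shares that background. Each group is described as run in triplicate, with no word on separate cultures or days, and the p-values measure the spread between these samples, which may be technical.

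LPS, a glycolipid of the bacterial outer membrane, is bound by TLR4 together with CD14 and MD-2 and starts signalling through MyD88 and TRIF. The MyD88 branch leads to NF-kB and MAP kinases and to early cytokine genes, and the TRIF branch leads to IRF3, interferon beta and the interferon-stimulated genes. Polymeric PAC bind proteins. The study calls it disputed whether macrophages take up the larger chains, and cites uptake by dendritic cells. Uptake was not measured on these arrays. In the endolysosomal system the V-ATPase acidifies the lumen, and the MiT/TFE transcription factors respond to lysosomal load.

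Values are the deposited log2 signals, and a difference is the mean of medium PAC + LPS minus the mean of low PAC + LPS. The deposited values ran from 0.95 to 19.26, above the 16 that a scanner of 16 bits allows, so the scale had been stretched or shifted by steps that no source used here describes, and differences were not turned into fold changes. Receptor genes of smell and pheromones, which macrophages were taken not to use, gave a silent level of 4.74, the 95th percentile of the means of 1429 features. Replicates correlated at 0.9915 to 0.9919 within medium PAC + LPS and at 0.9914 to 0.9923 within low PAC + LPS, and arrays of the 2 groups correlated at 0.9829 to 0.9846. The median standard deviation among features above the silent level was 0.199 in medium PAC + LPS and 0.193 in low PAC + LPS. Of 14 macrophage markers, 12 lay above the silent level, among them Adgre1, Csf1r, Lyz2 and Spi1, while Cd163 and Adgre4 did not. The markers of B cells and of epithelial and endothelial cells were at or below it in all cases, and a few markers of other cells exceeded it, namely Cd4, S100a8, Xcr1, Siglech and Col1a1. The mean level of the 14 macrophage markers ran from 12.96 to 13.1 in medium PAC + LPS and from 13.53 to 13.72 in low PAC + LPS, with Mrc1, Itgam, Fcgr3 and Ptprc lower and Laptm5 higher at the test below, and 7 of 12 lower with a filter on the silent level. The 7 neutrophil markers summed to 23.3 to 25.4 in medium PAC + LPS and to 29.3 to 32.7 in low PAC + LPS, and of these S100a8 alone exceeded the silent level. The part of these markers in the results that follow was not tested.

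Medium PAC + LPS cells differed from low PAC + LPS cells in 2774 features at an adjusted p under 0.05 (limma, Benjamini-Hochberg), or 12.5% of those tested. Of these, 1422 (6.4%) were higher and 1352 (6.09%) were lower, and 550 of the higher (2.48% of all features) and 605 of the lower (2.72%) differed by at least 1. The largest differences among named genes were -7.80 and -6.89 on the lower side (Timp1 and Cish) and 5.28 and 4.66 on the higher side (Slamf8 and Dio2). The groups did not overlap for 2721 (98.1%) of the changed features, against 5885 (26.5%) of all features. The median difference over all features was 0.0. Of the 11951 features above the silent level in a compared group, 2649 changed, so lists of expressed genes meet a higher background than that of all features. When the spread was estimated from the 6 compared arrays alone, 1569 features passed, 786 higher and 783 lower, and 1501 of these were among the 2774.

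**Figure D1:**
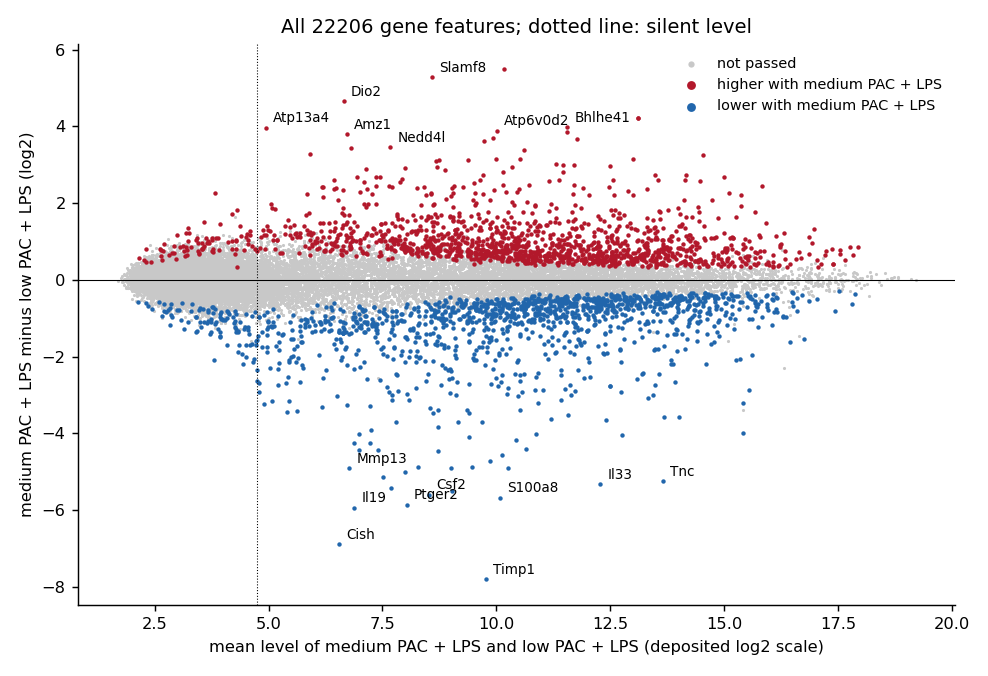
Each point is a gene feature, with the mean level over both groups (log2) on the horizontal axis and the difference of medium PAC + LPS minus low PAC + LPS (log2) on the vertical axis, red (higher) or blue (lower) where the adjusted p was under 0.05, and the dotted line is the silent level. The lower points reach -7.80 (Timp1) and the higher points 5.48 (a feature with no symbol here), and most features lie near 0.

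Timp1, Cish, Csf2 and Il19 were among the genes furthest below low PAC + LPS. Timp1, an inhibitor of matrix metalloproteinases, measured 5.60, 5.27 and 6.78 in medium PAC + LPS and 13.70, 13.50 and 13.85 in low PAC + LPS. Its difference was -7.80 (95% interval -8.96 to -6.64, adjusted p = 2.9e-09). The means were 13.74 in LPS and 3.10 in control cells, so low PAC + LPS cells lay at the level of LPS and medium PAC + LPS cells far nearer to control. Cish, a SOCS family protein that restrains signalling from cytokine receptors through STAT5, measured 2.76, 2.78 and 3.77 in medium PAC + LPS and 10.05, 10.11 and 9.83 in low PAC + LPS. All 3 medium PAC + LPS values lay below the silent level, and the difference was -6.89 (adjusted p = 9.7e-13). Csf2, which codes for the growth factor GM-CSF, measured 5.28, 6.40 and 5.47 in medium PAC + LPS and 11.44, 11.64 and 10.89 in low PAC + LPS (difference -5.60, adjusted p = 1.3e-09). Il19, a cytokine of the IL-10 family, measured 4.17, 4.03 and 3.52 in medium PAC + LPS and 9.92, 9.81 and 9.78 in low PAC + LPS. Its difference was -5.93, and its medium PAC + LPS values were again below the silent level.

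Receptor and matrix genes stood beside them. Ptger2, a prostaglandin E2 receptor that raises cyclic AMP, measured 4.78, 4.67 and 5.84 in medium PAC + LPS and 10.87, 11.11 and 10.90 in low PAC + LPS (difference -5.86). Il33, an alarmin of the IL-1 family, measured 9.45, 10.02 and 9.38 in medium PAC + LPS and 14.93, 14.79 and 15.12 in low PAC + LPS (difference -5.33). Tnc, the matrix glycoprotein tenascin C, which itself can act on TLR4, measured 11.11, 11.24 and 10.73 in medium PAC + LPS and 16.12, 16.29 and 16.39 in low PAC + LPS (difference -5.24). Both Il33 and Tnc thus kept a clear signal in either group. The transcription factor Maf, which takes part in Il10 expression in macrophages, measured 6.74, 5.77 and 6.30 in medium PAC + LPS and 11.80, 11.95 and 11.58 in low PAC + LPS (difference -5.50). S100a8, a subunit of the calprotectin complex, measured 6.77, 8.04 and 6.96 in medium PAC + LPS and 12.94, 12.46 and 13.38 in low PAC + LPS (difference -5.67). The remaining leading lower genes were Rgs16, a brake on G protein signalling, at -5.41, Lipg, an endothelial type lipase, at -5.14, and Mmp13, a collagenase, at -4.91. All 12 leading lower genes were raised by LPS relative to control at an adjusted p under 0.05, a contrast that shares no array with the present one and in which 7493 features (33.7%) passed, 2992 (13.5%) higher and 4501 (20.3%) lower.

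Among the higher genes, Slamf8, a surface receptor of the SLAM family on macrophages, measured 11.22, 11.26 and 11.18 in medium PAC + LPS and 5.86, 5.36 and 6.60 in low PAC + LPS. The difference was 5.28 (95% interval 4.60 to 5.96, adjusted p = 4e-10). LPS cells averaged 4.89 and control cells 3.60, so the level in medium PAC + LPS was above that in both. Dio2, the deiodinase that activates thyroid hormone, measured 8.80, 9.37 and 8.75 in medium PAC + LPS and 4.50, 4.21 and 4.24 in low PAC + LPS, where it lay below the silent level (difference 4.66). Bhlhe41, a transcriptional repressor, measured 13.51, 13.66 and 13.47 in medium PAC + LPS and 9.61, 9.77 and 9.34 in low PAC + LPS (difference 3.98). Atp6v0d2, the d2 subunit of the V-ATPase, measured 11.86, 11.85 and 12.13 in medium PAC + LPS and 7.57, 8.21 and 8.42 in low PAC + LPS. Its difference was 3.88 (95% interval 3.27 to 4.50, adjusted p = 6.5e-09). The difference in Fabp3, a fatty acid binding protein, was 3.69, with 11.82, 11.71 and 11.78 in medium PAC + LPS and 8.03, 8.50 and 7.72 in low PAC + LPS. These genes were chosen for large differences between groups that do not overlap, so their separation is a description. The other leading higher genes were Atp13a4, a P-type ATPase (3.96), Fam20c, a kinase of secreted proteins (3.84), Amz1 (3.79), Lhfpl2 (3.66), the zinc transporter Slc39a2 (3.61), the ubiquitin ligase Nedd4l (3.46) and the vessel growth factor Angpt2 (3.44). Of these 12 genes, 6 were lowered and 4 were raised by LPS relative to control. Features without a symbol here were not named, and 1 of them had the largest positive difference of all, 5.48.

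**Figure D2:**
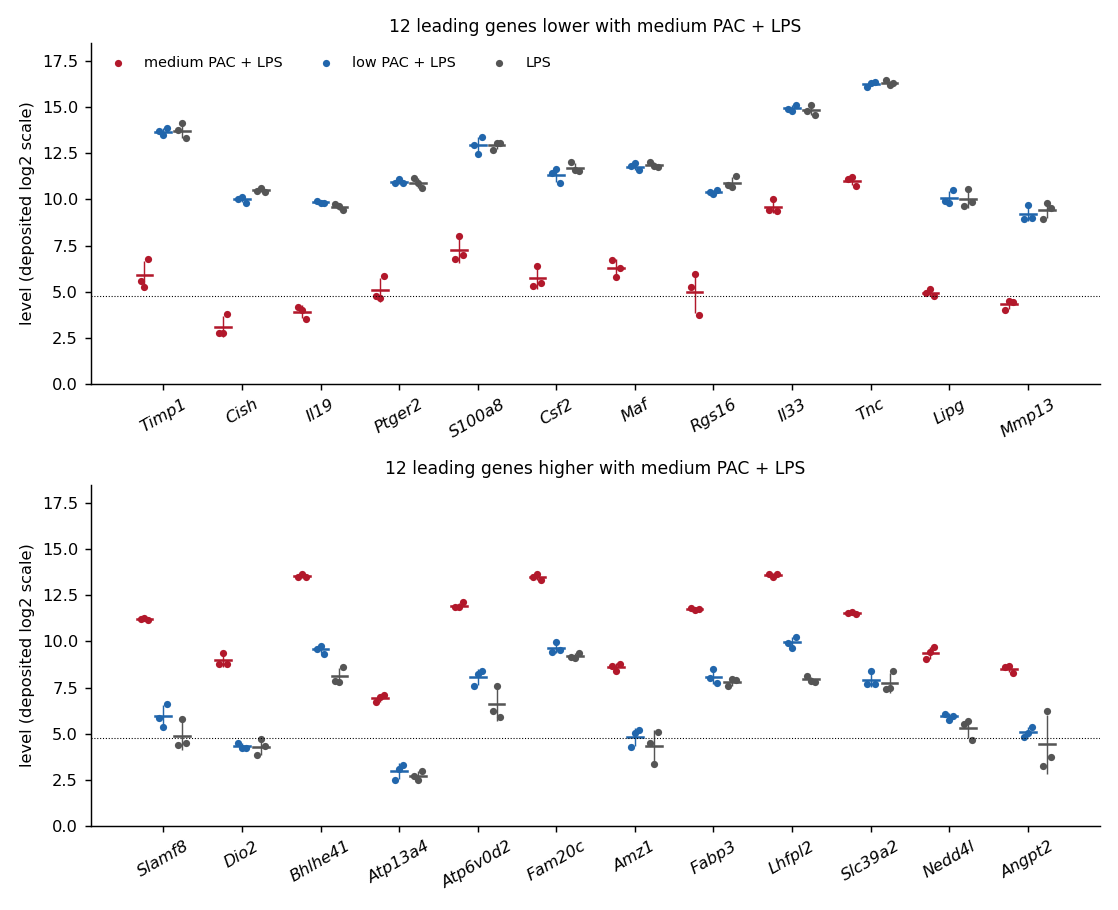
Signal (log2) of the 24 leading genes, 12 higher and 12 lower, on each array of medium PAC + LPS (red), low PAC + LPS (blue) and LPS (grey), with bars for the mean and standard deviation and a dotted line at the silent level. The genes were chosen for groups that do not overlap, and Timp1 has 5.27 to 6.78 in medium PAC + LPS against 13.50 to 13.85 in low PAC + LPS.

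The array series also held LPS alone and a fraction of high polymerization, which places these levels. Timp1 averaged 13.74 in LPS, 13.68 in low PAC + LPS, 5.88 in medium PAC + LPS and 11.08 in high PAC + LPS. Il33 averaged 14.84, 14.95, 9.62 and 13.57 in the same order, and Slamf8 averaged 4.89, 5.94, 11.22 and 9.88. The high PAC + LPS mean lay between those of low PAC + LPS and medium PAC + LPS for all 24 leading genes, whose medium and low values had chosen them. Against LPS alone, 33 features (0.149%) passed the test in low PAC + LPS, 3251 (14.6%) in medium PAC + LPS and 2238 (10.1%) in high PAC + LPS. These 3 comparisons share the LPS arrays. At an unadjusted p under 0.05, low PAC + LPS differed from LPS in 1725 features. Low PAC was not without a measured effect, since Lhfpl2 rose by 2.01 (adjusted p = 4.4e-05), Bhlhe41 by 1.46 (adjusted p = 0.00082) and Atp6v0d2 by 1.48 (adjusted p = 0.047) in low PAC + LPS relative to LPS. Between medium PAC + LPS and high PAC + LPS, 1192 features (5.37%) differed, with -5.19 for Timp1, -3.46 for Cish, 1.34 for Slamf8 and 2.13 for Atp6v0d2.

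The changes ran against the LPS response more often than along it. Of the 1672 features (7.53%) raised by LPS by at least 1 relative to control, 559 (33.4%) were lower in medium PAC + LPS than in low PAC + LPS and 151 (9.03%) were higher, and their median difference was -0.33. For the 495 features raised by at least 3, 222 (44.8%) were lower and 32 were higher, with a median of -0.57. Of the 2893 features (13%) lowered by LPS by at least 1, 604 (20.9%) were higher and 137 (4.74%) were lower, with a median of 0.21. The shares over all features were 6.4% higher and 6.09% lower. Not all LPS genes took part. Tnf, the inducer of acute inflammation, measured 18.22, 18.05 and 18.23 in medium PAC + LPS and 17.42, 17.56 and 17.55 in low PAC + LPS, and rose by 0.66 (adjusted p = 0.00025). Ccl3, a chemokine for monocytes, measured 19.24, 19.15 and 19.22 in medium PAC + LPS and 19.23, 19.20 and 19.19 in low PAC + LPS (difference -0.01, 95% interval -0.40 to 0.39), close to the top of the scale. Ptgs2, the inducible cyclooxygenase, differed by -0.08 and Cxcl2, a neutrophil chemokine, by 0.05. Their 95% intervals were -1.88 to 1.71 and -1.95 to 2.05 with the spread of all 24 arrays, and -0.40 to 0.23 and -0.21 to 0.31 with that of the 12 LPS arrays. Nos2, Acod1, Csf3 and Il1rn had differences of 0.10, 0.11, 0.34 and 0.10 and did not pass. With the spread of the 12 LPS arrays their 95% intervals were -0.26 to 0.47, -0.14 to 0.36, 0.09 to 0.60 and -0.17 to 0.38. None passed after adjustment there either, and Il1rn lay near the top of the scale.

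**Figure D3:**
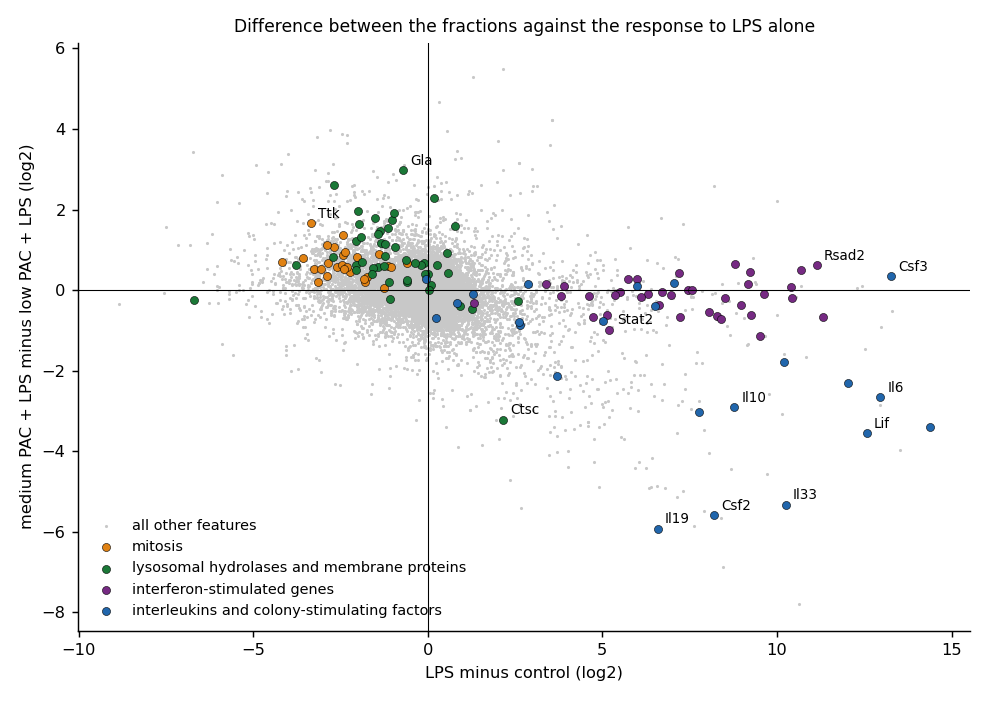
Each point is a gene feature, with the LPS response (LPS minus control, log2) on the horizontal axis and the difference of medium PAC + LPS minus low PAC + LPS (log2) on the vertical axis, with members of 4 gene lists in colour. Features raised by LPS by at least 3 have a median of -0.57, interleukins (blue) reach -5.93 at Il19, and interferon-stimulated genes (purple) lie around -0.13.

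Secreted interleukins and colony stimulating factors were lower or did not pass. Of 23 measured, 11 were lower and none higher, with a median difference of -0.88. Il6, the acute phase cytokine, measured 12.50, 12.57 and 12.72 in medium PAC + LPS and 15.33, 15.26 and 15.18 in low PAC + LPS, with a difference of -2.66 (95% interval -3.69 to -1.63, adjusted p = 0.00064). Control cells averaged 2.68, so Il6 remained far above its resting level in both groups. Il10, the main cytokine that restrains macrophages, measured 11.35, 11.27 and 11.23 in medium PAC + LPS and 14.29, 14.04 and 14.23 in low PAC + LPS (difference -2.91, adjusted p = 1e-08). Lif, which signals through gp130 like Il6, measured 11.98, 11.92 and 11.83 in medium PAC + LPS and 15.48, 15.42 and 15.50 in low PAC + LPS (difference -3.56, adjusted p = 1.1e-07). The groups stood apart by over 2 in each of these genes. Il1f9, a cytokine of the IL-1 family, fell by 3.02, Il18 by 2.14, Il27 by 1.79, its partner subunit Ebi3 by 0.88 and Il15, a growth factor of lymphocytes, by 0.77.

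The 2 agonists of the IL-1 receptor separated by group but did not pass the test over 24 arrays. Il1a measured 13.75, 13.80 and 13.61 in medium PAC + LPS and 17.02, 17.04 and 17.29 in low PAC + LPS (difference -3.40, adjusted p = 0.07). Il1b measured 15.18, 15.07 and 15.27 in medium PAC + LPS and 17.28, 17.47 and 17.66 in low PAC + LPS (difference -2.30, adjusted p = 0.26). Neither gene's groups overlapped. The shared estimate of spread includes resting arrays with PAC that differ widely in these 2 genes. When the 12 LPS arrays alone gave the spread, the adjusted p was 5.4e-08 for Il1a and 2.2e-06 for Il1b, and with the 6 compared arrays it was 8.1e-05 and 0.00041.

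Of 23 chemokines measured, 17 lay above the silent level, and 6 were lower and none higher, with a median of -0.52. Cxcl3, a ligand of CXCR2, measured 8.76, 7.51 and 7.81 in medium PAC + LPS and 10.70, 10.84 and 10.71 in low PAC + LPS (difference -2.72). Ccl12, a monocyte chemokine, fell by 2.46, Cxcl11, a ligand of CXCR3 induced by interferons, by 2.46, Ccl17, a T cell chemokine, by 2.29, Ccl6 by 1.77 and Cxcl14 by 0.94. With the spread of the 12 LPS arrays alone, 9 were lower, Ccl4 (-0.70), Ccl5 (-0.92) and Ccl22 (-0.52) among them, and the monocyte chemokines Ccl2 (0.79) and Ccl7 (0.83) were higher. On the receptor side, 4 of 13 chemokine receptors were lower and 2 higher. Ccr3, Ccr1, Ccr2 and Cx3cr1, which draw leukocytes to tissue, fell by 2.68, 2.34, 2.04 and 2.04. Ccrl2, a receptor that binds chemerin without signalling, measured 16.50, 16.46 and 16.43 in medium PAC + LPS and 14.42, 14.15 and 14.22 in low PAC + LPS (difference 2.20), and Cxcr4, the CXCL12 receptor, rose by 1.23.

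JAK-STAT genes, which carry the signals of many of these cytokines, were lower for 10 of 22 and higher for none (median -0.47). Pim2, a kinase induced by STAT5, measured 10.38, 10.09 and 10.39 in medium PAC + LPS and 13.26, 13.04 and 13.24 in low PAC + LPS (difference -2.90, adjusted p = 1.3e-09). The kinase Jak2 fell by 1.73, the transcription factors Stat5a and Stat3 by 1.33 and 0.85, and the feedback inhibitor Socs3 by 1.67. The named members that fell, with Cish, thus included a kinase, STAT factors and feedback inhibitors. With the spread of the 6 compared arrays, 8 of the 22 were lower. Of genes of NF-kB and its feedback, 10 of 23 were lower and 1 higher (median -0.38). Bcl3, a nuclear IkB protein, measured 12.08, 12.06 and 11.85 in medium PAC + LPS and 14.38, 14.33 and 14.55 in low PAC + LPS (difference -2.42). Tnip3, Nfkbiz, Rel and Nfkbia fell by 1.53, 1.12, 1.01 and 0.54, and Traf1, an adaptor of TNF receptors, rose by 0.49, although it did not pass in 8 of 15 other settings, among them those that leave out any 1 of the 6 compared arrays. The count of lower NF-kB genes dropped to 5 with the spread of the 6 compared arrays, and to 6 without medium PAC + LPS replicate 1 or without low PAC + LPS replicate 2.

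Upstream, the RNA of the receptor itself differed. The arrays do not measure protein, and by flow cytometry the study saw no drop of TLR4 protein with PAC. Tlr4 measured 10.77, 10.80 and 10.90 in medium PAC + LPS and 12.31, 12.16 and 12.14 in low PAC + LPS, with a difference of -1.38 (95% interval -1.68 to -1.08, adjusted p = 5.5e-07). The 22 Toll-like receptors and adaptors were mixed, with 6 higher and 4 lower and a median of 0.23. Cd180, a TLR4 homologue that tempers LPS responses in some cells, rose by 1.93 and Tlr13, a receptor of bacterial ribosomal RNA, by 1.80, while Tlr8 fell by 1.94 and Irak3, a brake on MyD88 signalling, by 1.08. With the 6 compared arrays alone, 3 were higher. Rab7b, a small GTPase that sends TLR4 to lysosomes, had a difference of -0.23 and did not pass.

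Immediate early genes and their phosphatases were mostly lower or did not pass. Of 27 AP-1, EGR and other immediate early genes, 14 were lower and 3 higher (median -0.60), and 7 were lower with the spread of the 6 compared arrays. Ier2, Fosl2, Egr1, Btg2 and Fos fell by 2.43, 2.36, 2.14, 2.10 and 1.74. Jun (1.07), Mafk (0.53) and Atf3 (0.86) rose. Of 15 dual specificity phosphatases and Sprouty genes, which shut off MAP kinases, 8 were lower and 1 higher (median -0.40), and 2 higher without medium PAC + LPS replicate 1. Dusp6, a phosphatase of ERK, measured 8.03, 8.45 and 8.91 in medium PAC + LPS and 12.94, 12.85 and 12.79 in low PAC + LPS (difference -4.40, adjusted p = 5.9e-12). Dusp2 fell by 4.16 and Spry2 by 1.62, whereas Dusp4 measured 15.26, 15.47 and 15.43 in medium PAC + LPS and 13.30, 13.44 and 13.70 in low PAC + LPS (difference 1.91).

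Matrix proteases and their inhibitors were among the genes furthest below low PAC + LPS, with 9 of 20 lower, 2 higher and a median of -0.68, and 1 higher without low PAC + LPS replicate 3. Mmp9, a gelatinase, measured 7.78, 7.65 and 8.10 in medium PAC + LPS and 12.56, 12.28 and 12.37 in low PAC + LPS (difference -4.56, adjusted p = 8.5e-09). Serpinb2, an inhibitor of the urokinase plasminogen activator, measured 13.42, 13.44 and 13.41 in medium PAC + LPS and 17.42, 17.45 and 17.33 in low PAC + LPS (difference -3.98). The elastase gene Mmp12 fell by 2.32 and thrombospondin 1 (Thbs1) by 2.91. Plau, the urokinase that Serpinb2 inhibits, moved the other way, with 10.79, 10.47 and 10.25 in medium PAC + LPS and 8.85, 8.96 and 7.87 in low PAC + LPS (difference 1.94). Promoter windows ran from 250 bases before to 50 bases after the gene start. The letters TGANTCA, where N is any base, are a looser form of the AP-1 element, so not every match is an AP-1 site. They stood on either strand of the window of 6 of 14 matrix genes with a RefSeq promoter entry (42.9%). The shares were 8.35% of tested genes and 7.81% of all 32851 windows. Of the 6 genes, 3 were lower and none higher, and of all 14, 5 were lower and 1 higher. Over the array the letters stood in 80 of 1003 lower genes (7.98%) and in 47 of 429 genes lower by at least 1 (11%). The stretches of 60 bases around the match in the 3 matrix genes that fell are shown, 5′ to 3′ on the strand of the gene in RefSeq build GRCm38.p6, with the match in capitals. They lie at chr9:7272453-7272512 (Mmp13, plus strand), chr9:7347304-7347363 (Mmp12, plus strand) and chr1:107511303-107511362 (Serpinb2, plus strand), where the match lies 35, 44 and 94 bases before the gene start. The base at N is C in Mmp13, G in Mmp12 and A in Serpinb2.
Mmp13: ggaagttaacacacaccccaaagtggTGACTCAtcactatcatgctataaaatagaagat
Mmp12: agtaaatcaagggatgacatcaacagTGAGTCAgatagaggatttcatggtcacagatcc
Serpinb2: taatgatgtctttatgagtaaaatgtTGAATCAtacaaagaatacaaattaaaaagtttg

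All 37 interferon-stimulated genes measured were raised by LPS, by a median of 7.21. In medium PAC + LPS, 4 were lower (10.8%, against 6.09% of all features) and none higher, with a median difference of -0.13. However, 36 of the 37 lay above the silent level, where 2649 of 11951 features changed in either direction. Stat2, a subunit of the factor that drives these genes, measured 13.42, 13.37 and 13.40 in medium PAC + LPS and 14.40, 14.43 and 14.32 in low PAC + LPS (difference -0.99). Mx2 fell by 0.72, the tetherin gene Bst2 by 0.67 and the RNA sensor Ifih1 by 0.67. Isg15, a ubiquitin-like protein, had a difference of -0.11 (adjusted p = 0.93) and Rsad2, the antiviral viperin, of 0.62 (adjusted p = 0.68). The 95% interval lay within 1 in either direction for 17 of the 37 genes, and 7 had a mean above 16 in a compared group, near the top of the scale. With the 12 LPS arrays alone, 9 were lower and 2 higher, and without 3 resting arrays with high Il1b, 8 were lower and 1 higher. Ifnb1, the interferon that starts this programme, lay near the silent level, with a difference of -0.31 that did not pass. The interferon response element stood on either strand of the promoter window of 18 of 28 of these genes (64.3%), against 3.94% of tested genes and 3.44% of all windows. It is shown for a pair of these genes, in the same format, at chr4:156200851-156200910 (Isg15, minus strand) and chr19:34640778-34640837 (Ifit1, plus strand), where the matches lie upstream of the gene start and overlapping matches are all in capitals.
Isg15: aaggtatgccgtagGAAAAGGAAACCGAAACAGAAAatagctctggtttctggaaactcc
Ifit1: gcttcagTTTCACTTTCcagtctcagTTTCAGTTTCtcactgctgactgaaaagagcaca

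Genes of the V-ATPase, the proton pump of lysosomes, were higher for 14 of 18 subunits and lower for none, with a median of 0.76, and 17 of 18 differences were positive. The background was 6.4% of features higher. Besides Atp6v0d2, the largest differences lay in the catalytic sector. Atp6v1c1 measured 14.51, 14.78 and 14.76 in medium PAC + LPS and 12.94, 12.91 and 12.78 in low PAC + LPS (difference 1.81). Atp6v1d measured 12.20, 11.93 and 12.26 in medium PAC + LPS and 10.50, 10.39 and 10.64 in low PAC + LPS (difference 1.61). Atp6v1a, which binds ATP, measured 15.80, 15.63 and 15.54 in medium PAC + LPS and 14.17, 14.05 and 13.96 in low PAC + LPS (difference 1.60, adjusted p = 1.5e-08). Groups overlapped in none of the 3. The regulatory subunit Atp6v1h rose by 0.91, and the a3 subunit Tcirg1 by 0.86. Atp6v0a2 (-0.21), Atp6v1e1 (0.09), Atp6v0e (0.32) and Atp6v0b (0.34) did not pass. The count stayed between 10 and 16 under all other settings, with none lower.

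Lysosomal hydrolases and membrane proteins were higher for 33 of 47 and lower for 2 (median 0.68). Gla, the alpha-galactosidase lacking in Fabry disease, measured 13.92, 13.91 and 14.11 in medium PAC + LPS and 11.10, 10.82 and 11.10 in low PAC + LPS (difference 2.97, adjusted p = 1.2e-10). Galc, which degrades galactosylceramide, measured 7.64, 7.85 and 7.76 in medium PAC + LPS and 5.06, 4.89 and 5.46 in low PAC + LPS (difference 2.61). The collagen-degrading cathepsin Ctsk rose by 2.29, the heparan sulfate hydrolase Naglu by 1.97, the cholesterol exporter Npc1 by 1.92, the cystine exporter Ctns by 1.78, the glycogen hydrolase Gaa by 1.75 and the chloride exchanger Clcn7 by 1.60. Abundant members moved less, with Lamp1 up by 0.75 and Ctsb by 0.68. Ctsc, the dipeptidyl peptidase that activates granule proteases, was opposite to the list, with 13.70, 13.90 and 13.80 in medium PAC + LPS and 17.06, 16.97 and 17.02 in low PAC + LPS (difference -3.22, adjusted p = 9.7e-13), and Cln3 fell by 0.48. The count of higher genes ran from 23 to 35 over the other settings.

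MiT/TFE factors, their regulators at the lysosome and known targets were higher for 11 of 20 and lower for 3 (median 0.55). Gpnmb, a glycoprotein of lysosomes and a target of MITF, measured 16.40, 16.29 and 16.36 in medium PAC + LPS and 13.62, 13.70 and 13.65 in low PAC + LPS (difference 2.69, adjusted p = 3.9e-12). Flcn and Fnip1, partners that regulate these factors at the lysosome, rose by 1.87 and 1.13, the GTPase Rragc by 1.08 and the coactivator Ppargc1b by 1.69. The 3 lower genes were factors themselves. Mitf fell by 1.55 and Tfe3 by 0.56, and Tfec by 0.59, although Tfec did not pass in 11 of 15 other settings, and Mitf alone passed with the 6 compared arrays. The remaining factor, Tfeb, had a difference of -0.28 and did not pass. Autophagy genes were less affected, with 5 of 40 higher (12.5%), 2 lower (5%) and a median of 0.06, and 2 higher with the 6 compared arrays alone. Over all features 6.4% were higher and 6.09% lower.

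The letters TCACGTG, the core of the element that MiT/TFE factors bind in promoters of lysosomal genes, stood on either strand of the promoter window of 4 of 12 V-ATPase genes, 11 of 43 lysosomal genes and 5 of 18 MiT/TFE genes with a RefSeq entry, together 20 of 73 (27.4%). It stood in 817 of 15691 tested genes (5.21%) and in 1237 of 32851 windows (3.77%). Over the whole array, 130 of 1042 higher genes (12.5%), 49 of 1003 lower genes (4.89%) and 638 of 13646 other genes (4.68%) held it. Of the 20 list genes with the letters, 13 were higher and 1 lower, close to the 48 higher and 5 lower among all 73. No test was run on these shares, and a match is not a measured binding site. Stretches of 60 bases are shown for 6 genes that rose, to let the shared letters be seen in their context, 5′ to 3′ on the gene's strand in RefSeq build GRCm38.p6 with the match in capitals. They lie at chrX:134601166-134601225 (Gla, minus), chr11:101069994-101070053 (Naglu, plus), chr11:119267796-119267855 (Gaa, plus), chr16:44139357-44139416 (Atp6v1a, minus), chr17:25133331-25133390 (Clcn7, plus) and chr11:54438078-54438137 (Fnip1, plus). The match lies 194, 74, 141, 131, 16 and 75 bases before the gene start, and Fnip1 holds the letters of the opposite strand.
Gla: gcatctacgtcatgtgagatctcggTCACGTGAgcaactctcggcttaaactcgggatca
Naglu: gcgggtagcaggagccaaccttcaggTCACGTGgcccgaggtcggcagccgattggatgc
Gaa: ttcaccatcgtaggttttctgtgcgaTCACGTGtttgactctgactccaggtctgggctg
Atp6v1a: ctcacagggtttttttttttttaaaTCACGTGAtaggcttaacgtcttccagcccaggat
Clcn7: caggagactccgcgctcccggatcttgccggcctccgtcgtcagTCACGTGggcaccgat
Fnip1: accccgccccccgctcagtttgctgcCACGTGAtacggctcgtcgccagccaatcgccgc

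Lipid genes moved both ways. Of 15 LXR targets and lipid handling genes, 6 were higher (40%) and 4 lower (26.7%), against 6.4% and 6.09% of all features (median 0.39). Plin2, which coats lipid droplets, measured 16.60, 16.59 and 16.47 in medium PAC + LPS and 14.80, 14.66 and 14.92 in low PAC + LPS (difference 1.76). Fabp4, a fatty acid binding protein, rose by 2.11 and Nr1h3, which codes for LXR alpha, by 1.29. Abca1, the exporter of cholesterol to apolipoprotein A-I, measured 10.49, 10.98 and 10.49 in medium PAC + LPS and 13.03, 13.52 and 13.06 in low PAC + LPS (difference -2.55, adjusted p = 1.2e-09). Mylip, which marks the LDL receptor for degradation, fell by 2.49 and the lipase Lpl by 1.02. Abcg1, the exporter of cholesterol to HDL, had a difference of -0.12 (95% interval -0.44 to 0.20) and did not pass. Of 19 cholesterol synthesis genes, 2 were lower, Fdps (-0.60) and the regulator Srebf2 (-0.37), and none higher, with a median of -0.09. Neither Fdps nor Srebf2 passed with the 6 compared arrays, with the 12 LPS arrays or with arrays centred on the gene median. The same held without medium PAC + LPS replicate 2 or 3 and without any 1 low PAC + LPS replicate. Without low PAC + LPS replicate 2 the 1 lower gene was another member, Pmvk. Hmgcs1, which starts the pathway, had a difference of 0.02. Of 14 fatty acid synthesis genes, 2 were higher and none lower (median 0.04). No more than 1 was higher without medium PAC + LPS replicate 3 or low PAC + LPS replicate 3, none with the 6 compared arrays, and 1 was lower without medium PAC + LPS replicate 2.

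Many cell cycle genes were higher. In bulk samples a larger number of dividing cells and more RNA per cell cannot be told apart. Of 28 DNA replication genes, 12 were higher and 1 lower (median 0.45), and of 27 mitosis genes, 15 were higher and none lower (median 0.60). LPS had lowered all 28 and all 27 relative to control. Cdt1, which licenses replication origins, measured 13.36, 13.38 and 13.57 in medium PAC + LPS and 11.66, 11.70 and 11.48 in low PAC + LPS, with means of 11.26 in LPS and 13.87 in control cells (difference 1.82, adjusted p = 4.4e-10). Ttk, a kinase of the spindle checkpoint, measured 9.36, 9.31 and 9.29 in medium PAC + LPS and 7.64, 8.43 and 6.92 in low PAC + LPS (difference 1.66). E2f1, the factor of the G1/S transition, rose by 1.39, Nek2 by 1.37, Plk1 by 1.13 and the helicase subunit Mcm3 by 0.97. Ccne1 fell by 0.71, but did not pass with the spread of the 6 compared arrays or of the 12 LPS arrays. Nor did it pass without medium PAC + LPS replicate 1 or low PAC + LPS replicate 1 or 2. The counts of higher genes were 5 for replication and 6 for mitosis with the spread of the 6 compared arrays, and 7 and 8 with that of the 12 LPS arrays, and mitosis fell to 9 without medium PAC + LPS replicate 3.

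Genes of macrophage surface and function moved both ways, against a background of 6.4% of all features higher and 6.09% lower. Cd80, a ligand that costimulates T cells, measured 12.30, 12.34 and 12.10 in medium PAC + LPS and 15.84, 15.69 and 15.88 in low PAC + LPS (difference -3.56, adjusted p = 6e-11). Of 22 checkpoint, costimulatory and SLAM genes, 6 were higher, led by Slamf8 and Slamf7 (2.59), and 5 lower, Pdcd1 (-2.64) and Vsir (-1.84) among them. Mrc1, the mannose receptor, measured 5.84, 6.53 and 5.15 in medium PAC + LPS and 10.82, 10.58 and 10.74 in low PAC + LPS (difference -4.87). In all, 10 of 24 scavenger, lectin and Fc receptors were lower, Fcgr1 (-2.18) among them, and 3 were higher, with Trem2 up by 0.61 and Clec4e by 0.80, and 6 were lower with the 6 compared arrays alone. Osteoclast genes were mixed, with 5 of 16 higher and 4 lower. Tm4sf19, a membrane protein, measured 16.17, 16.10 and 16.23 in medium PAC + LPS and 12.92, 12.97 and 12.86 in low PAC + LPS (difference 3.25), and the acid phosphatase Acp5 rose by 2.61, while Nfatc1, the factor that drives osteoclast formation, fell by 2.33.

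In metabolism, Pfkfb3, which activates glycolysis, measured 11.97, 12.11 and 11.75 in medium PAC + LPS and 15.00, 14.93 and 14.92 in low PAC + LPS (difference -3.01), although 8 of 31 glycolysis and hypoxia genes were higher and 3 lower, with Ndrg1 up by 2.58 and the enzyme Tpi1 by 1.10. That count was 4 with the 6 compared arrays and 13 with a filter on the silent level. Of 10 genes of itaconate, nitric oxide and amino acid metabolism, 3 were lower, led by the histamine-forming Hdc (-3.07), and 1 higher. The higher gene did not pass with the 6 compared arrays, or without medium PAC + LPS replicate 1 or low PAC + LPS replicate 3. Over all features 6.4% were higher and 6.09% lower. Of 23 iron genes, 5 were lower (21.7%), Lcn2 (-2.86), Cp (-2.10) and Slc39a14 (-1.61) among them, and 3 higher (13%), Flvcr1 (1.30) and Slc11a2 (1.04) among them. The lower count was 3 without medium PAC + LPS replicate 3 and without low PAC + LPS replicate 1, and the higher count was 5 without low PAC + LPS replicate 2 and 7 with a filter on the silent level. Among 17 prostaglandin and leukotriene genes, 4 were higher, Hpgds (2.20) and Alox5 (1.36) among them, and 3 lower, Ptger2 and Ptger4 (-1.69) among them, and 2 were higher without medium PAC + LPS replicate 1.

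Stress genes were mixed. The counts in this paragraph stand against 6.4% of all features higher and 6.09% lower. Above the silent level the background was larger, with 2649 of 11951 features changed in either direction. Hmox1, the heme oxygenase, measured 18.14, 18.26 and 18.14 in medium PAC + LPS and 17.28, 17.32 and 17.38 in low PAC + LPS (difference 0.86). Of 18 NRF2 targets, 5 were higher and 1 lower, against 6.4% and 6.09% of all features, and 1 was higher with the 6 compared arrays. The lower count was 2 without medium PAC + LPS replicate 1. Of 27 ATF4 targets, 4 were lower (14.8%) and none higher, among them Nupr1 (-2.46) and Ddit4 (-1.77), although Atf3 rose by 0.86. Of 19 endoplasmic reticulum genes, 6 were lower, Atf6 (-1.06) among them, and 3 with the 6 compared arrays alone. Of 14 heat shock genes, 4 were lower, led by the paralogs Hspa1b (-2.09) and Hspa1a (-1.93), whose near-identical transcripts the probes may not tell apart, and none was higher, except 2 without medium PAC + LPS replicate 1 and 1 without low PAC + LPS replicate 2. The 29 ribosomal protein genes had a median difference of -0.10. The TNF superfamily was mixed, with 5 of 28 higher, Tnfrsf26 at 2.95 and Tnfsf9 at 1.33 among them, and 4 lower, Tnfsf4 at -2.14 and Fas at -1.55 among them, and 3 were higher with the 6 compared arrays. Of 15 inflammasome genes, 3 were higher and 4 lower, and 2 lower with the 6 compared arrays. Of 23 genes that the study's text names, which were chosen on these same samples and give no independent evidence, 6 were higher and 4 lower, and 7 were lower with the 12 LPS arrays alone.

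**Figure D4:**
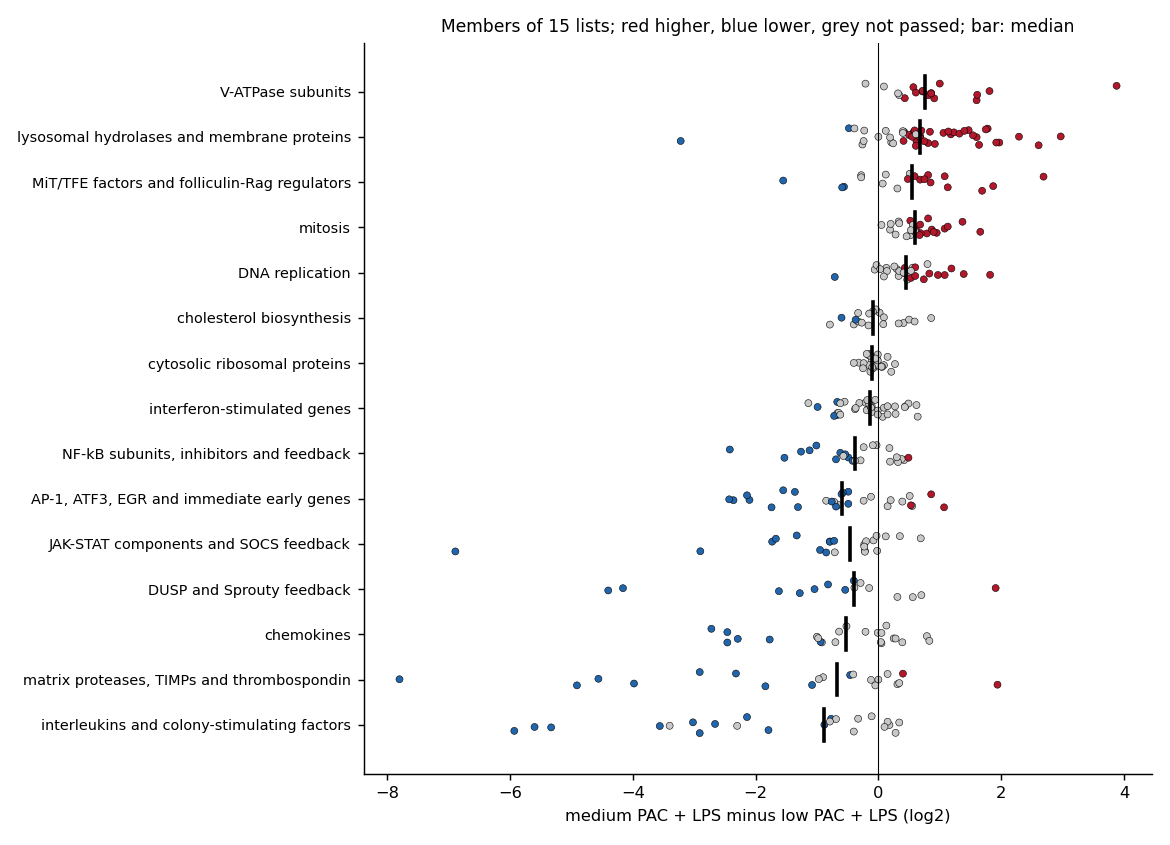
Each row is 1 of 15 gene lists, with a point for each measured member at its difference of medium PAC + LPS minus low PAC + LPS (log2), coloured by whether it passed the test, and a bar at the median. V-ATPase subunits (median 0.76) and lysosomal genes (0.68) lie mostly right of 0, and interleukins (-0.88) and matrix proteases (-0.68) mostly left of it.

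The same pair of fractions was compared in resting cells, on arrays that share none with the comparison under LPS. There 1940 features (8.74%) differed, 891 (4.01%) higher and 1049 (4.72%) lower. Of the 1422 features higher with LPS, 488 were also higher at rest, or 34.3% of the LPS list and 54.8% of the resting list, and 46 were lower at rest. Of the 1352 lower with LPS, 370 were lower at rest as well (27.4% and 35.3%), and 33 were higher. The difference of medium minus low differed between LPS and resting cells in 1301 features (5.86%), 679 (3.06%) with a higher and 622 (2.8%) with a lower value under LPS. Of the features called with LPS, 465 of the higher (32.7%) and 424 of the lower (31.4%) were among them.

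Lysosomal genes were higher in both states. V-ATPase subunits had a median of 0.76 with LPS and 0.79 at rest, where 11 of 18 were higher and none lower. Lysosomal genes had medians of 0.68 and 0.49, with 26 of 47 higher and 1 lower at rest, and MiT/TFE genes had medians of 0.55 and 0.66. Atp6v0d2 rose by 3.88 with LPS and by 3.85 at rest, and the difference of 0.03 between the states did not pass (95% interval -0.83 to 0.90, adjusted p = 0.98). Gla rose by 2.97 and 2.62, Tm4sf19 by 3.25 and 3.36, and Plin2 by 1.76 and 1.78. Their differences between the states were 0.36, -0.11 and -0.02, and none of the 3 passed. Other members did differ between the states, since 12 of 47 lysosomal genes passed with a higher and 3 with a lower value under LPS, against 3.06% and 2.8% of all features. Gusb, a glucuronidase, differed by 1.64 with LPS and 0.63 at rest, the protease Ctsl by 0.92 and -0.03, and Ctsc by -3.22 and -1.21. Of 20 MiT/TFE genes, 3 passed with a higher and 3 with a lower value under LPS, and of 18 V-ATPase subunits 1 each way.

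Several of the leading genes differed between the states. Timp1 differed by -7.80 with LPS and by 0.10 at rest (difference between the states -7.90, adjusted p = 1.6e-06), and Cish by -6.89 and 0.03 (-6.92, adjusted p = 5.3e-10). Both lay below the silent level in control cells, at 3.10 and 2.06, where a decrease could not be measured. Il6, which also lay below the silent level in control cells, differed by -2.66 and 0.12 (-2.77, adjusted p = 0.019). Maf differed by -5.50 with LPS but 1.10 at rest (-6.61). Interleukins and colony stimulating factors had a median of -0.88 with LPS and 0.38 at rest, where 4 of 23 were higher and 3 lower, and 12 passed the test of the difference, all with a lower value under LPS. LPS alone had raised 21 of the 23, with a median of 6.58 over the list, so a decrease at rest may have had less room to show. Of 23 chemokines, 2 were higher and 3 lower at rest, and 1 passed the test of the difference with a higher and 7 with a lower value under LPS. Rgs16 was an exception among the leading lower genes, at -5.41 and -3.86, with a difference of -1.56 that did not pass (adjusted p = 0.084). Slamf8 differed by 5.28 with LPS and by 0.92 at rest, where it did not pass (adjusted p = 0.098), and its difference between the states was 4.36 (adjusted p = 3.4e-06). Cell cycle genes likewise parted, with medians of 0.45 and -0.31 for replication and 0.60 and -0.34 for mitosis, and 13 of 28 and 19 of 27 passed the test of the difference with a higher value under LPS.

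Some genes responded at rest and not, or less, under LPS. Il1rn, the natural antagonist of the IL-1 receptor, differed by 0.10 with LPS and 3.47 at rest. With LPS it measured 18.29, 18.16 and 18.11 in medium PAC + LPS and 18.07, 18.01 and 18.17 in low PAC + LPS, and Ccl3 differed by -0.01 with LPS and 2.54 at rest. Both lay near the top of the scale with LPS. Atf3 differed by 0.86 with LPS and 3.18 at rest, and Cd200r1, an inhibitory receptor, by 0.46 and 3.22. In the other direction, Ppfia3, a scaffold protein of the liprin family, measured 12.30, 11.78 and 12.22 in medium PAC + LPS and 8.96, 8.48 and 9.40 in low PAC + LPS (difference 3.15), against -0.66 at rest. Alox5, the 5-lipoxygenase of leukotriene synthesis, reversed, with 1.36 with LPS and -2.10 at rest, and Olfml3 did so with 1.21 and -1.71, each past the test in both states.

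**Figure D5:**
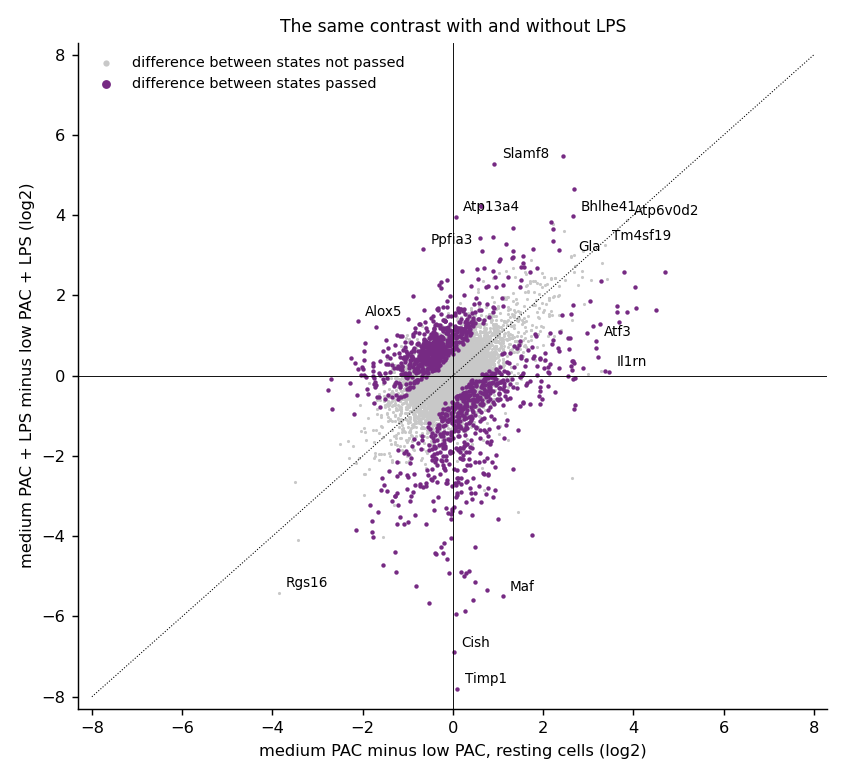
Each point is a gene feature, with the difference of medium minus low PAC under LPS (log2) on the vertical axis and that in resting cells (log2) on the horizontal axis, purple where the difference between the states passed. Atp6v0d2 lies at 3.88 with LPS and 3.85 at rest, near the line of equality, and Timp1 (-7.80 and 0.10) and Cish (-6.89 and 0.03) lie close to the vertical axis.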

How the data were processed

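RNA of 24 RAW264.7 samples was measured on Clariom S mouse arrays. The authors deposited log2 values, already summarised and normalized in Transcriptome Analysis Console; how they were summarised and background-corrected was not given in the sources used here. All columns were used. Of 28846 features, 6640 array controls were left out; 19572 of the 22206 gene features (88.1%) had 1 symbol in the platform and RefSeq tables, and 2634 had none. Groups came from the titles and treatment labels.

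The tests used limma 3.58.1 (R 4.3.3), with 1 model over 24 arrays with 8 group means, moderated variances (16 residual and 3.39 prior degrees of freedom), two-sided p-values adjusted by Benjamini-Hochberg over 22206 features, with a threshold of 0.05. On simulated data the model recovered 50 of 100 planted changes of 1 and 95 of 100 of 2, with 10 false calls. The simulated noise was Gaussian with the same spread in every group for each gene, as the model assumes. The figures may thus not hold for genes whose spread differs between groups. Array number limits the precision. The 41 gene lists (821 of 892 entries measured, 92.0%) and the genes described were chosen with earlier results of these data known, and lists were counted, not tested. Genes named are the 12 largest differences in each direction with 1 symbol, separate groups and a mean above the silent level, up to 4 changed members per list and direction with members that show a mixed list, a fixed set of genes of the LPS and PAC response, and the 5 largest differences between the states; a few further list members were named after their values were seen. Alternatives were other normalizations, filters, variance priors, array weights, array subsets, a replicate block and each replicate left out. Promoter windows came from RefSeq (GRCm38.p6). Same-numbered arrays did not deviate together (correlations under LPS of -0.066, 0.011 and -0.078), so numbers were not used as pairs.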

Additional observations from a re-analysis of the deposited data

Results flagged for a closer look

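The effect of medium against low PAC differed between LPS and resting cells in 1301 features by the test of the difference between the states. Values are given for the leading genes, the fixed set and the 5 largest differences between the states in each direction. Genes named only as list members are left out. Values with a lower effect under LPS were -7.90 for Timp1, -6.92 for Cish, -6.61 for Maf, -6.14 for Ptger2, -6.09 for Il33, -6.04 for Csf2, -5.99 for Il19, -5.62 for Lipg, -5.19 for Mmp13, -5.14 for S100a8 and -4.43 for Tnc. Genes with a smaller such value were Il1rn (-3.37), Il6 (-2.77), Ccl3 (-2.55), Atf3 (-2.32), Abcg1 (-1.83), Il10 (-1.67), Rab7b (-1.18), Tlr4 (-1.02) and Hmox1 (-0.62). Of these, Ccl3, Il1rn and Hmox1 had means above 17 under LPS in both groups, near the highest deposited value of 19.26. Timp1, Cish and Il6 lay below the silent level in control cells, where a decrease could not be measured. All 12 leading lower genes were raised by LPS relative to control. For the others among them, a decrease at rest may likewise have had less room to show.

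For the same choice of genes, values with a higher effect under LPS were 4.36 for Slamf8, 3.89 for Atp13a4, 3.82 for Ppfia3, 3.46 for Alox5, 2.92 for Olfml3, 2.84 for Angpt2, 2.57 for Nedd4l, 2.34 for Fabp3, 1.97 for Dio2, 1.66 for Fam20c, 1.44 for Lhfpl2 and 1.30 for Bhlhe41.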

How the results depend on the processing

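The comparison of medium PAC + LPS with low PAC + LPS gave 2774 changed features with all arrays in the fit. With only the groups compared it gave 1569 (786 higher, 783 lower), and with only the 12 LPS arrays 2113, of which 2037 were among the 2774. The separate comparison of medium PAC with low PAC in resting cells gave 674 lower features with only its own groups, and 1049 with all arrays. Fewer arrays set the spread in the smaller fits. A filter on the silent level gave 1021 features with a higher effect under LPS, tested over fewer features. With 1 compared array left out at a time, 2242 to 2432 features changed under LPS (1126 to 1281 higher, 1081 to 1178 lower), 1487 to 1638 at rest (721 to 784 higher, 766 to 855 lower) and 1056 to 1195 differed between the states (512 to 611 higher, 539 to 603 lower). With the replicate number as a block the counts were 2695, 1827 and 1194, and since same-numbered arrays did not deviate together the number is no more than a name. No value reversed. Of 211 named genes, 198 were changed and 155 of these stayed so in all 15 other settings. Values near the top of the scale, above 16, and near the silent level of 4.74 limit what could be measured there. Alternatives without the 3 resting arrays with high Il1b (medium PAC replicate 3, high PAC replicates 2 and 3) were added after the data had been seen.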
